A study of Mus musculus with 3 samples.

Results

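BELAs are bilayered embryo-like aggregates, spheres in which mouse embryonic stem cells (ESCs) form an inner core of epiblast-like (Epi) cells under an outer layer of visceral endoderm-like (VE) cells. The cells described here are the embryonic, Epi cells of the BELA library. They were chosen from the RNA itself: a barcode was kept if it held at least 4000 genes and at most 10% of its unique molecular identifiers (UMIs, each marking 1 captured mRNA molecule) on mitochondrial genes, and a kept cell was an Epi cell if the summed UMIs of Pou5f1, Sox2, Nanog and Fgf4 exceeded those of Gata6, Sox17, Dab2 and Cubn. Of 2220 barcodes, 1410 were kept (63.5%), and 868 of these were Epi cells, 61.6% of the kept cells with an exact Clopper-Pearson 95% interval of 59.0 to 64.1%. The other 542 kept cells were assigned to the VE lineage and served as the reference within the library. The kept cells of the series numbered 2692 in 3 libraries, so the Epi cells of BELAs were 868 of 2692. No kept barcode of the BELA library occurred among the kept cells of the other libraries.

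All cells came from iGATA ESCs, an E14tg2a line in which doxycycline switches on a GATA4-mCherry transgene, and therefore share 1 parental line. For BELAs, the transgene of clone C6 was switched on for 8 h in 2i + LIF medium with doxycycline at 0.5 µg/ml and off for 16 h in N2B27 medium. Seeded at 30000 cells/cm2 on gelatin, the cells formed floating aggregates over 3 days, of which about 200 round ones were hand-picked. In VE cysts, from the same clone and dose, doxycycline was kept on for the 16 h in N2B27, and FGF4 (10 ng/ml) was given with heparin (1 µg/ml) from then on. Structures with a visible Epi-like core were avoided in picking. Few Epi cells were found in VE cysts, and the part of each step in this was not tested. Epi cysts received no doxycycline and grew in matrigel for 1 day in 2i + LIF and 3 days in N2B27. With 1 library per condition, cells are not replicates, so levels are summed UMIs normalized to the total of the group (CPM, the usual sequencing scale) with exact 95% Poisson intervals that cover counting error only, no test was made, and library and condition cannot be told apart.

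The epiblast is the pluripotent tissue that gives rise to the embryo proper. On leaving the naive state of the blastocyst, which 2i + LIF maintains in culture, epiblast cells lower naive factors such as Esrrb and Tfcp2l1 and take up a formative program with Otx2, Pou3f1, Fgf5 and the de novo DNA methyltransferases. They signal to the surrounding VE through Nodal and FGF4, and they form a polarized epithelium on a basement membrane that is largely laid down by the endoderm.

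The 868 Epi cells held 72108590 UMIs. Their depth ran from 14492 to 278538 UMIs per cell with a median of 78973, beside medians of 90251 in the VE lineage cells, 60102 in 655 Epi cells of Epi cysts and 92105.5 in 44 Epi cells of VE cysts. For a gene with no UMI in the BELA Epi cells the floor of 3 counts is 0.0416 CPM, and the exact two-sided Poisson interval, as for Olig3, reaches 0.0512 CPM. The Epi cells had a median of 7588.5 genes and 3.43% mitochondrial UMIs, and the VE lineage cells 7756.5 genes and 4.79%. No doublets were called or removed. In 62 Epi cells (7.14%), over 10% of the UMIs of the 8 markers belonged to the VE markers. These mixed cells had a median of 60626 UMIs, below the 80331.5 of the other Epi cells.

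The sums that chose the cells lay far apart for most of them. The Epi marker sum ran from 3 to 164 UMIs in Epi cells with a median of 45, and their VE marker sum from 0 to 111 with a median of 1. In 227 Epi cells no VE marker had a UMI. In VE lineage cells the medians were 1 UMI for Epi markers and 248 UMIs for VE markers. The 3 Epi cells nearest the line held 3 against 2, 7 against 2 and 6 against 1 UMIs of Epi and VE markers, and the 3 nearest VE lineage cells 1 against 2, 91 against 102 and 53 against 67. The 3 Epi cells had only 15195 to 21357 UMIs in all, while 2 of the 3 VE lineage cells carried many UMIs of both marker sets. Within 10 UMIs of the line lay 40 Epi cells and 1 VE lineage cell.

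**Figure D1:**
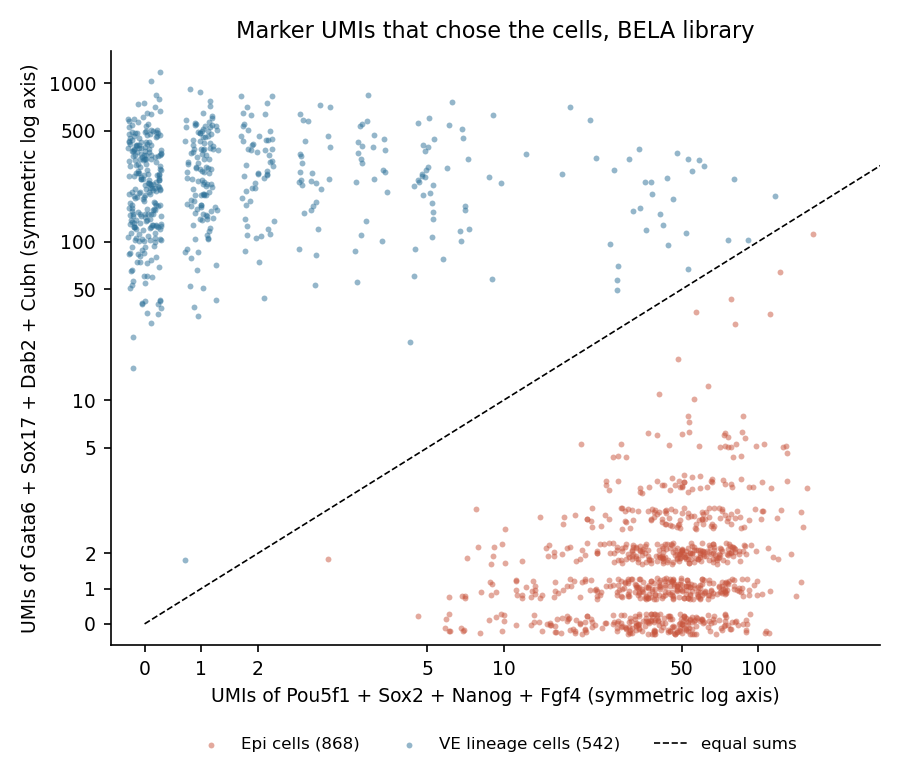
Each point is 1 of the 1410 kept BELA cells, with its summed UMIs of the 4 Epi markers on the horizontal and of the 4 VE markers on the vertical axis (both symmetric log axes, points jittered by less than 1 UMI). The 868 Epi cells lie below the dashed line of equal sums, with a median of 1 VE marker UMI, and a few cells near it carry many UMIs of both lineages.

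The markers themselves gave levels of 480 CPM (475 to 485) for Pou5f1, 46.4 CPM for Sox2, 29.9 CPM for Nanog and 21.9 CPM for Fgf4 in Epi cells, against 35.2, 1.74, 1.05 and 0.697 CPM in VE lineage cells. These values describe the choice of the cells and are no result. In Epi cysts the same genes stood at 601 (Pou5f1), 76.3 (Sox2), 33.1 (Nanog) and 7.30 CPM (Fgf4). Of the 4, Fgf4, an FGF ligand of the epiblast, had the higher level in BELA Epi cells and Pou5f1, Sox2 and Nanog the lower one. The same rule chose the Epi cells of each library, so these differences are description only. In the Epi cells of VE cysts Fgf4 stood at 18.2 CPM (14.3 to 22.8).

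RNA of the VE lineage was present at a low level in the Epi cells. Over 49 VE genes chosen in the cyst libraries alone (at least 100 CPM in VE cysts and at least 50-fold above Epi cysts), the level in BELA Epi cells was 1.56% of that in VE lineage cells at the median, with quartiles of 1.02 and 3.50% and a range from 0.388% for Lgals2 to 14.0% for Neat1. Without the mixed cells the median was 1.19%. In Epi cysts, set against the same VE cells, it was 0.700%. The genes were chosen for a low level in Epi cysts, so that value was held down by the choice and is no fair reference. Whether free RNA, doublets or expression set the level in BELA Epi cells was not tested. The same holds for the genes below whose level in Epi cells is at most a few percent of the VE one. All 14 further VE genes (Foxa2, Gata4, Hnf4a, Ttr and others) stood at least 2-fold lower in Epi cells. Hnf4a and Afp lay under 1 CPM there. Gata4 stood at 1.32 CPM in Epi and 104 CPM in VE lineage cells, and these counts do not tell the transgene from the endogenous gene.

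Of 9442 genes with a mean of at least 5 CPM over the Epi and VE lineage cells of BELAs, without the 8 marker genes, 832 stood at least 2-fold higher in Epi cells (8.81%) and 1324 at least 2-fold lower (14.0%). Here and below, 2-fold refers to the ratio after adding 5 CPM to each level, which shrinks the ratio of low genes. The median gene had a log2 ratio of 0.05. When levels were scaled to UMIs without mitochondrial and ribosomal protein genes, the median was 0.17 and the split became 1248 higher and 1320 lower, so that the balance between the directions depends on the scaling. At 4-fold, 123 genes were higher and 396 lower. Since the groups were made from the cells' own RNA, these counts serve as the background for the gene lists and are no test.

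The gene with the highest ratio was Ccnd1, cyclin D1, which drives entry into the cell cycle: it stood at 175 CPM in Epi and 8.80 CPM in VE lineage cells, a plain ratio of 19.9 (18.1 to 21.8). After thinning every cell to 40000 UMIs, which 801 Epi and 514 VE lineage cells allowed, Ccnd1 had a UMI in 94.9% of the Epi and 11.5% of the VE lineage cells. Pou3f1, a POU factor of the formative epiblast, followed with 254 and 15.8 CPM (ratio 16.1, 15.0 to 17.3), and Pim2, a kinase that promotes survival, with 296 and 19.6 CPM (ratio 15.1, 14.2 to 16.1). Tdgf1, the Nodal co-receptor Cripto, stood at 102 CPM in Epi and 5.26 CPM in VE lineage cells (ratio 19.3, 17.2 to 21.8). All 4 were low but not absent in the VE lineage cells, whose median depth was the greater.

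The rest of the 20 highest genes covered several functions. Phc1 encodes a subunit of Polycomb repressive complex 1 and stood at 175 against 15.4 CPM, Pclaf a PCNA-binding protein of replication (304 against 28.6 CPM), and Sox11 a neural and epiblast SOX factor (86.8 against 6.44 CPM). Gng3 (97.7 against 4.97 CPM), Uchl1 (95.4 against 6.66 CPM) and Ina (64.5 against 3.41 CPM) are genes best known from neurons, the first a G protein subunit, the second a ubiquitin hydrolase and the third an intermediate filament. Metabolic genes among them were Fabp5, a fatty acid-binding protein (267 against 30.2 CPM), Bcat1, which transaminates branched-chain amino acids (65.0 against 3.69 CPM), and Prps1, which makes the precursor of nucleotides (102 against 8.90 CPM). Platr10, Pla2g1b, Col18a1, Cbr3, Nav2 and Pdzd4 were also in the list, with levels of 61.2 to 112 CPM in Epi cells.

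The 20 genes with the lowest ratios were genes of the endoderm layer. Spink1, a secreted protease inhibitor, stood at 22.1 CPM in Epi and 2770 CPM in VE lineage cells, the carrier protein gene Ttr at 3.77 and 718 CPM, and the lysosomal protease gene Ctsh at 5.34 and 778 CPM. In percent of the VE level these were 0.799 (Spink1), 0.526 (Ttr) and 0.686 (Ctsh). Each lay under the median of 1.56% of the 49 VE genes, a set to which these genes themselves belong. Basement membrane genes among the 20 were Col4a1 (23.1 against 1579 CPM), Col4a2 (10.4 against 753 CPM), Lama1 (6.45 against 421 CPM) and Sparc (104 against 5233 CPM). Srgn, Amn, Pga5, Cited1, Npl, Tfpi, Folr1, Apom, Lgmn, Ctsc, Apoa1, Nxf7 and Pth1r made up the remainder, with 1.73 to 30.9 CPM in Epi cells.

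To print the sequence behind a leading gene, the promoter of Pim2 is given because it alone held the octamer bound by POU factors among the 20 highest genes, 16 of which had an entry in the RefSeq table of GRCm38.p6. The window runs from 250 bases before to 50 after the start, chrX:7878056-7878355 on the plus strand, and the octamer ATGCAAAT is in capitals on either strand.
Pim2: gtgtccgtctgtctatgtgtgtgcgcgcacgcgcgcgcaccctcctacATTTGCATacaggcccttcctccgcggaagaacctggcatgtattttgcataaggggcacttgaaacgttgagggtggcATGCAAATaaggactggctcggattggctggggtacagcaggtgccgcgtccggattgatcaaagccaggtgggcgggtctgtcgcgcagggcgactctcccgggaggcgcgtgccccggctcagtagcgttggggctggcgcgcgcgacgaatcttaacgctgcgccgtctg
The octamer occurred in 9 of 646 matched promoters (1.39%) of the genes at least 2-fold higher in Epi cells, 100 of 7564 (1.32%) of all genes measured well enough and 474 of 27025 (1.75%) of the table, so the share among Epi genes was close to the background. A match of these letters is a description and says nothing of binding. Ccnd1, Pou3f1 and Fabp5 were among those with no entry.

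Formative genes stood higher in Epi cells than in the VE lineage. Of 14 genes of formative and primed pluripotency, 13 were measured well enough, 11 were at least 2-fold higher and none was lower, with a median log2 ratio of 2.00 beside 0.05 for all genes. Otx2, the homeodomain factor of the epiblast and of the anterior VE, stood at 106 CPM (104 to 108) in Epi and 25.1 CPM in VE lineage cells. Dnmt3b, a de novo DNA methyltransferase, stood at 958 and 335 CPM, Zic5 at 75.2 and 7.48 CPM, and Lef1, a nuclear effector of Wnt signals, at 46.2 and 1.80 CPM. Fgf5, often used as the mark of this state, had a log2 ratio of only 0.63, with 90.1 CPM in Epi and 56.3 CPM in VE lineage cells, and Cd24a one of 0.72. Fgf15 was under the minimum level. Most of the program was thus far lower in VE lineage cells, and Fgf5 was not.

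Naive genes were scarce in Epi cells, and most of those measured stood higher in the VE lineage. Of 12 naive genes, 6 reached the minimum level, with a median log2 ratio of -1.66. Klf5 stood at 12.5 CPM in Epi and 164 CPM in VE lineage cells, Tbx3 at 2.94 and 47.4 CPM, Klf4 at 7.57 and 46.7 CPM, and Tfcp2l1 at 2.97 and 14.4 CPM. Each of these factors thus had at least 4 times the level in the VE lineage. Klf2 alone was at least 2-fold higher in Epi cells (10.9 against 1.23 CPM), and Zfp42, the marker Rex1, stood at 25.2 and 36.8 CPM. Esrrb, Prdm14, Nr5a2, Nr0b1, Tcl1 and Tet2 did not reach the minimum. A group of 10 Epi cells in which several of these genes stood higher is described below.

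Among 16 genes of general pluripotency, all measured, 7 were at least 2-fold higher and 1 lower. Beside Tdgf1 these were Gdf3, a TGF-beta family ligand (33.4 against 2.00 CPM), Lin28b, Zscan10, Rif1, Zfp281 and Tead2. Dppa5a stood at 647 CPM in Epi and 1199 CPM in VE lineage cells, Lin28a at 135 and 144 CPM. These genes named for pluripotency were therefore as high in the VE lineage or higher.

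In the Nodal pathway, 12 of 18 genes were measured, 5 at least 2-fold higher and 1 lower. On the ligand side, Gdf3 and the co-receptor Tdgf1 were higher, as was the receptor Acvr2b (54.4 against 15.4 CPM). Targets and inhibitors differed in level too: Lefty1, a secreted Nodal antagonist, stood at 56.9 CPM (55.2 to 58.7) in Epi and 9.04 CPM in VE lineage cells, and Skil, a repressor of SMADs, at 105 and 31.2 CPM. Lefty2 stood at 7.18 and 0.0917 CPM but missed the minimum. Smad2, an effector, was the lower one (26.0 against 67.7 CPM).

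In the FGF and ERK pathway the receptor genes took opposite sides. Of 20 genes, 19 were measured, 4 at least 2-fold higher and 6 lower in Epi cells. Fgfr1 stood at 42.4 CPM in Epi and 3.80 CPM in VE lineage cells, while Fgfr3 stood at 0.402 and 18.1 CPM and Fgfr4 at 1.03 and 13.0 CPM. Among the ligands, Fgf3 (1.23 against 20.3 CPM), Fgf8 (3.36 against 22.3 CPM) and Fgf10 (0.125 against 27.3 CPM) were lower in Epi cells. The ERK targets Etv5 (75.4 against 17.4 CPM), Dusp6 (31.6 against 7.01 CPM) and Dusp4 (55.1 against 24.3 CPM) were higher in Epi cells, and Spry2 and Spry4 were not, with 12.0 against 16.0 CPM and 4.46 against 12.4 CPM. Klb, the co-receptor of endocrine FGFs, was the remaining lower gene (0.194 against 17.5 CPM).

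Wnt and BMP genes were split in the same manner. Of 26 Wnt genes, 15 were measured, 4 higher and 6 lower. The nuclear effectors Lef1, Tcf7 (27.2 against 5.69 CPM) and Tcf7l1 (82.2 against 20.3 CPM) and the receptor Fzd2 (52.8 against 7.15 CPM) were higher in Epi cells. Lower were Tcf7l2 (13.2 against 86.0 CPM), the secretion factors Porcn (1.64 against 59.9 CPM) and Wls (9.17 against 34.7 CPM), and the secreted antagonists Dkk1 (0.555 against 52.3 CPM), Sfrp1 (14.3 against 99.4 CPM) and Sfrp5 (0.402 against 20.6 CPM). Of 19 BMP genes, 12 were measured, with Id3 higher (79.3 against 14.0 CPM) and Bmp2, Id2 and the receptor Acvr1 lower. Id2 and Id3, both targets of BMP, thus lay on opposite sides, with 10.6 against 62.2 CPM for Id2.

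The Eph and ephrin genes that passed 2-fold were higher in the VE lineage, and other peptide ligands and receptors were divided. None of 10 measured Eph and ephrin genes of 14 was higher in Epi cells and 6 were lower, with Efna3 at 7.70 against 173 CPM, Efnb1 at 0.749 against 41.2 CPM and Epha4 at 2.62 against 15.6 CPM. Of 23 other peptide ligands and receptors, 15 were measured, 5 higher and 6 lower. The chemokine gene Cxcl12 (27.9 against 1.19 CPM), Calca, which encodes calcitonin and CGRP (28.7 against 1.54 CPM), Spp1, Ptn and the growth factor receptor gene Igf1r (44.0 against 14.2 CPM) were higher in Epi cells. The receptor gene Pdgfra stood at 0.652 CPM against 73.4 CPM in the VE lineage.

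Most genes for the basement membrane stood lower in Epi cells. Of 20 such genes, 19 were measured, 15 were at least 2-fold lower in Epi cells and 1 was higher, with a median log2 ratio of -2.71. Laminin genes stood at 31.7 against 458 CPM (Lamb1) and 20.5 against 337 CPM (Lamc1), and Serpinh1, a collagen chaperone, at 47.0 against 1323 CPM. Lamb1 stood at 6.94% and Lamc1 at 6.08% of the VE level, above the median of 1.56% of the 49 VE genes, which were chosen for a low level in Epi cysts. Sparc, itself 1 of the 49, stood at 1.98%, within their quartiles of 1.02 and 3.50%. The higher gene was Col18a1, a basement membrane collagen, with 112 CPM (110 to 114) in Epi and 9.39 CPM in VE lineage cells. Matrix receptors were divided, 3 higher and 3 lower among 12 measured of 18: the laminin receptor subunit Itga6 (46.2 against 17.3 CPM) and the syndecans Sdc1 and Sdc2 were higher, and Itga5, Gpc3 and Gpc4 lower.

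The lineages differed in which junction genes were high. Of 23 genes, 22 were measured, 3 higher and 9 lower in Epi cells. The higher ones were Epcam (463 against 200 CPM) and the claudins Cldn3 (39.1 against 6.35 CPM) and Cldn4 (26.0 against 2.90 CPM), while Cldn6 (88.6 against 481 CPM) and Cldn7 (176 against 527 CPM) were lower. Podxl, an apical sialomucin, and Slc9a3r1, an apical scaffold, stood at 29.1 against 227 CPM and 91.4 against 496 CPM. Cdh1, E-cadherin, stood at 140 and 75.8 CPM and did not pass 2-fold. The keratin genes Krt8, Krt18 and Krt19 were at least 2-fold lower in Epi cells.

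Endocytosis and lysosome genes formed the list with the most members on one side. Of 21 genes, all measured, 19 were at least 2-fold lower in Epi cells and none was higher, with a median log2 ratio of -2.62 and values such as 332 against 6213 CPM for Ctsl and 32.0 against 440 CPM for the receptor gene Lrp2. Cholesterol synthesis and uptake had 7 lower genes and none higher of 15 measured (16 in the list), with Cyp51 at 81.8 against 454 CPM, and the endoplasmic reticulum (ER) folding list 8 lower and 1 higher of 16, with Calr at 388 against 1081 CPM. In glycolysis and the hypoxia response, 20 genes had a median of -0.03, Slc16a3 (189 against 74.6 CPM) and Pdk1 (47.5 against 18.8 CPM) were higher and the glucose transporter gene Slc2a3 (146 against 894 CPM) was lower. The central metabolic genes thus had a median near that of all genes.

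Most S-phase genes and the DNA methyltransferase genes Dnmt1, Dnmt3a and Dnmt3b were higher in Epi cells. Of 12 methylation genes, 11 were measured, 5 were at least 2-fold higher (Dnmt1, Dnmt3a, Dnmt3b, Uhrf1 and Tet1) and 1 was lower, Dnmt3l, the catalytically inactive cofactor, with 11.5 against 115 CPM. Of 12 S-phase genes, 7 were higher and none lower, with a median log2 ratio of 1.17, Mcm6 for example at 153 against 50.6 CPM. Of 14 G2/M genes, only Bub1b passed 2-fold (82.5 against 32.4 CPM) and the median was 0.37. Among cyclins and inhibitors, Ccnd1 and Ccne1 (129 against 48.5 CPM) were higher, and Ccnd2, Cdkn1a (65.2 against 144 CPM) and Cdkn2a (12.8 against 91.6 CPM) were lower. Of 18 p53 targets and apoptosis genes, 16 were measured, with Trp53 (156 against 56.9 CPM), Pmaip1 and Bcl2l11 higher.

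Of 14 Polycomb and trithorax genes, Phc1 and Jarid2 (138 against 38.0 CPM) were higher and Epop (37.1 against 236 CPM) lower. Of 22 imprinted genes, 17 were measured, 4 higher and 7 lower. Snrpn stood at 416 CPM in Epi and 62.3 CPM in VE lineage cells, and Mest, Phlda2 and Slc38a4 were the other higher ones. H19 (3.22 against 104 CPM), Igf2 (2.87 against 36.5 CPM), Dlk1 (0.971 against 30.9 CPM), Grb10, Peg3, Peg10 and Igf2r were lower. On the X chromosome 328 genes were measured, of which 15.9% were higher and 21.6% lower, beside 8.81% and 14.0% of all genes, with a median of -0.05.

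Outside the endoderm, few markers of other cell types reached the minimum level. No 2-cell, blood or endothelial marker did so in this comparison. Of 14 streak and mesoderm markers 3 were measured, and T stood at 0.347 CPM and Mixl1 and Cdx2 also below 1 CPM. Of 10 neural markers 3 were measured and all were higher in Epi cells, namely Sox3 (34.3 against 3.01 CPM), Nes and Tubb3, while Sox1 had at most 1 UMI in a thinned cell. Of 9 germ cell markers Dnd1 alone passed 2-fold (10.8 against 1.14 CPM), of 8 fibroblast markers Thy1 was higher and Fbln1 lower, and of 10 trophoblast markers Eomes was lower. Anterior VE genes stood lower in 4 of 6 measured, among them Lhx1 (0.749 against 51.3 CPM) and Hhex, with Lefty1 the higher one, and 6 of 7 parietal endoderm genes were lower. Of 3 measured definitive endoderm genes Trh was higher (93.8 against 9.45 CPM) and Foxa2 and Krt8 lower. Of 10 measured Hippo and cytoskeletal targets, 3 were lower and none higher.

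**Figure D2:**
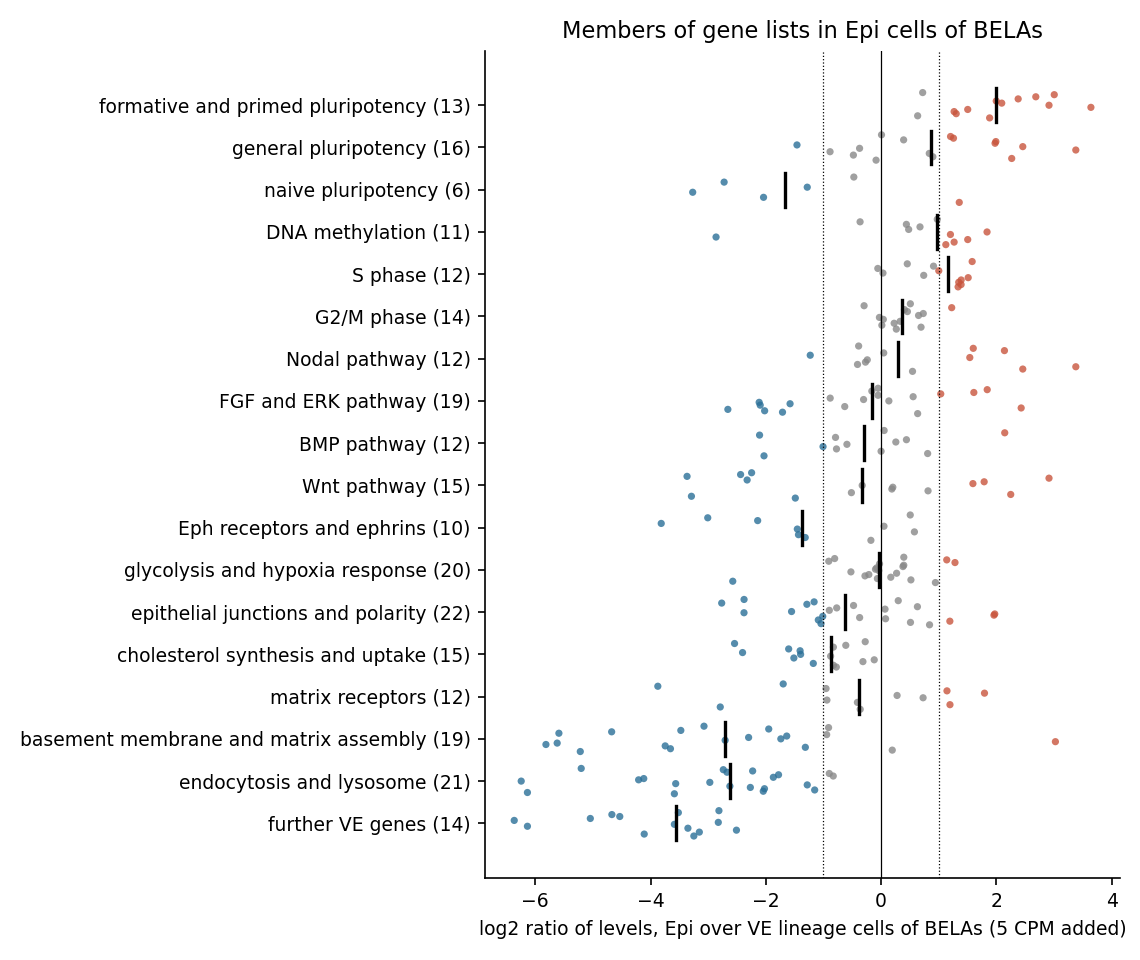
Log2 ratio of the level in Epi over VE lineage cells of BELAs (5 CPM added) for each measured member of 18 gene lists, 1 point per gene, with the number of measured members in brackets and a black bar at the list's median. Red points are at least 2-fold higher and blue points at least 2-fold lower (dotted lines): formative and S-phase genes lie to the right, and basement membrane, endocytosis and further VE genes to the left.

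The VE cyst library gave a further view of the contrast, since none of its cells entered the BELA values. Its 44 Epi cells and 581 VE lineage cells were separated by the same 8 markers. Of 9180 genes measured in both libraries, 785 were at least 2-fold higher in the Epi cells of BELAs and 1048 in those of VE cysts (of the 9650 genes measured in VE cysts, 11.4% were higher and 20.5% lower), and 596 were shared, 75.9% and 56.9% of the lists. Of the lower genes, 1153 were shared, 91.2% of 1265 in BELAs and 62.5% of 1846 in VE cysts. Of the genes reported here, 5 lay past 2-fold on opposite sides. Fgf8 stood at 3.36 CPM in Epi and 22.3 CPM in VE lineage cells of BELAs, but at 32.3 CPM in Epi and 0.168 CPM in VE lineage cells of VE cysts. The other genes were Grb10, Pkdcc, Tcf15 and, in the opposite sense, Itga6.

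Epi cells of BELAs and of Epi cysts differed in fewer genes than the 2 lineages did. In BELAs 104 of 9242 measured genes were past 2-fold on the higher side (1.13%) and 118 on the lower side (1.28%), and the median log2 ratio was -0.04. The comparison with the 44 Epi cells of VE cysts used the same BELA cells, and gave 56 higher (0.613%) and 50 lower (0.548%) of 9131. Several genes that were high against the VE lineage had like levels in both kinds of Epi cells: Ccnd1 had 175 CPM in BELAs beside 186 CPM in Epi cysts, Phc1 at 175 and 177 CPM, and Zic2 at 85.2 and 86.3 CPM. Pim2 was lower in BELAs (296 against 510 CPM), without passing 2-fold.

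The 20 genes lowest over Epi cysts included Meis2, Hoxb1, Wnt8a and T. Of 14 streak and mesoderm markers, 4 were measured in this comparison, 2 were at least 2-fold lower in BELA Epi cells and none was higher. Meis2, a partner of Hox proteins, stood at 0.430 CPM (0.292 to 0.610) in BELA Epi cells, 129 CPM in Epi cysts and 6.31 CPM in the Epi cells of VE cysts. Hotairm1, a long noncoding RNA, stood at 0.444, 72.5 and 2.19 CPM in the same order. Hoxb1 and Hoxb2 had at most 3 UMIs in all BELA Epi cells. Wnt8a (0.250 against 44.3 CPM), Nkx1-2 (0.388 against 40.5 CPM), Gbx2 (0.999 against 52.8 CPM), Foxb1, Olig3 and T (0.347 against 19.7 CPM) are genes of the streak, the posterior epiblast or the hindbrain, and Fgf8 (3.36 against 41.4 CPM) is expressed in the first and second of these. Signaling genes among the 20 lowest were Fst, which binds activin (8.86 against 149 CPM), Epha4, Cntfr and Tnfrsf19, and Crabp1, a retinoic acid-binding protein (12.0 against 149 CPM), Zeb2, Rtl8a and Rtl8b were also among them. Each of these genes stood lower in BELA Epi cells than in the Epi cells of VE cysts as well, with overlapping counting intervals for Hoxb1 and Crabp1, and Olig3 had no UMI in BELA Epi cells.

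The 20 genes highest over Epi cysts included a group that is known to respond to low oxygen. Ndufa4l2 stood at 48.6 CPM (47.0 to 50.2) in BELA Epi cells, 5.67 CPM in the VE lineage, 6.27 CPM in Epi cysts and 54.6 CPM in the Epi cells of VE cysts. Egln3, an oxygen sensor, stood at 26.1, 18.8, 4.46 and 25.7 CPM, Ero1l, an ER oxidase, at 58.3, 106, 15.0 and 30.6 CPM, and Ndrg1 at 17.3, 57.7, 0.784 and 3.64 CPM. Among Epi cells, Ndufa4l2 and Egln3 were therefore lowest in Epi cysts and about as high in VE cysts as in BELAs. The list of 20 glycolysis and hypoxia genes as a whole had a median log2 ratio of 0.33 over Epi cysts, with 2 genes past 2-fold, Ero1l and Pfkp.

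Krt18 and Anxa2 were also among the 20 highest. Of the 4 measured keratin and vimentin genes 2 were at least 2-fold higher than in Epi cysts, and of 22 junction and polarity genes 2 were higher and 1 lower. Krt18 stood at 147 CPM (144 to 150) in BELA Epi cells, 30.6 CPM in Epi cysts and 33.5 CPM in Epi cells of VE cysts, beside 405 CPM in the BELA VE lineage, so its BELA Epi level was 36.3% of the VE level. Anxa2, a membrane-binding annexin, stood at 46.6 CPM in BELA Epi cells, 3.99 CPM in Epi cysts and 18.7 CPM in the Epi cells of VE cysts, and at 102 CPM in the VE lineage. Sdc4, Car4, Atp1b1, Triml2 and Espn were higher than in Epi cysts with 17.8 to 135% of the VE level. These percentages are far above the median of 1.56% of the VE gene set. That set was chosen for a low level in Epi cysts, so genes with a level of their own in Epi cells tended to be left out. What set the percentages of the genes named here was not tested. Spink1 (0.799%) and Srgn (0.852%), also among the 20 and themselves members of the set, are below its median. Tdgf1 (102 against 26.3 CPM), Dppa5a (647 against 120 CPM), Smc1b, Cspg5, Lbh, 1190005I06Rik and Gm26917 made up the rest. Otx2 was higher than in both cyst libraries, with 106 CPM against 49.6 CPM in Epi cysts and 32.0 CPM (26.8 to 38.0) in Epi cells of VE cysts, and Lefty1 stood at 56.9, 38.9 and 267 CPM in this order.

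Few list members passed 2-fold against Epi cysts. No S-phase, G2/M, DNA methylation or cholesterol gene passed 2-fold, and of 14 formative genes 3 did, Fgf5 (90.1 against 35.5 CPM), Utf1 (615 against 290 CPM) and Otx2. Of 12 naive genes 4 were measured and Klf2 was lower (10.9 against 30.1 CPM). Of 15 measured FGF and ERK genes 4 were higher and 4 lower: Egr1 stood at 38.2 against 8.87 CPM, Spry1 at 21.0 against 6.49 CPM, and Spred1 at 18.2 against 55.0 CPM. The response genes of this pathway thus lay on both sides.

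Within the Epi cells, the UMIs of most genes had a spread near that of counting error. In 801 cells thinned to 40000 UMIs, with 67 shallower cells left out, 6666 genes had a mean of at least 0.5 UMI per cell. Their Fano factor, the variance over the mean and 1 where counting alone sets the spread, had a median of 1.20 and a 95th percentile of 2.95. It exceeded 2 for 687 genes (10.3%), 5 for 148 and 10 for 49. The factor depends on the mean count, so a value near 1 at a low mean does not show that a gene varied little between cells. Formative genes with high levels were in most cells: Utf1 had 3, 23 and 74 UMIs in the lowest, median and highest cell, Dnmt3b 0, 37 and 96, and Pou3f1 0, 8 and 65. Their Fano factors were 2.75 (Utf1), 9.01 (Dnmt3b) and 4.83 (Pou3f1).

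The 20 largest Fano factors belonged to genes of different kinds. Gm26917 had the largest (188), with 3 UMIs in the median and 867 in the highest cell, and Gm42418 (31.8) was also among them, and both are annotations that overlap ribosomal RNA sequence. Malat1, a nuclear RNA, reached 106 with a median of 86 and a range of 0 to 851 UMIs. The mitochondrial genes mt-Co1, mt-Co2, mt-Co3, mt-Atp6 and mt-Cytb had Fano factors of 19.3 to 35.0, and these move with the mitochondrial share that the filter caps. The metallothionein Mt1 (49.8) ran from 2 to 474 UMIs, and Ftl1-ps1, a ferritin pseudogene whose reads cannot be told from those of Ftl1, from 62 to 1000 UMIs. Glycolytic genes were Gapdh (29.4), Aldoa (28.1) and Pgk1 (20.0). S100a6 had 181 UMIs in a single cell.

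**Figure D3:**
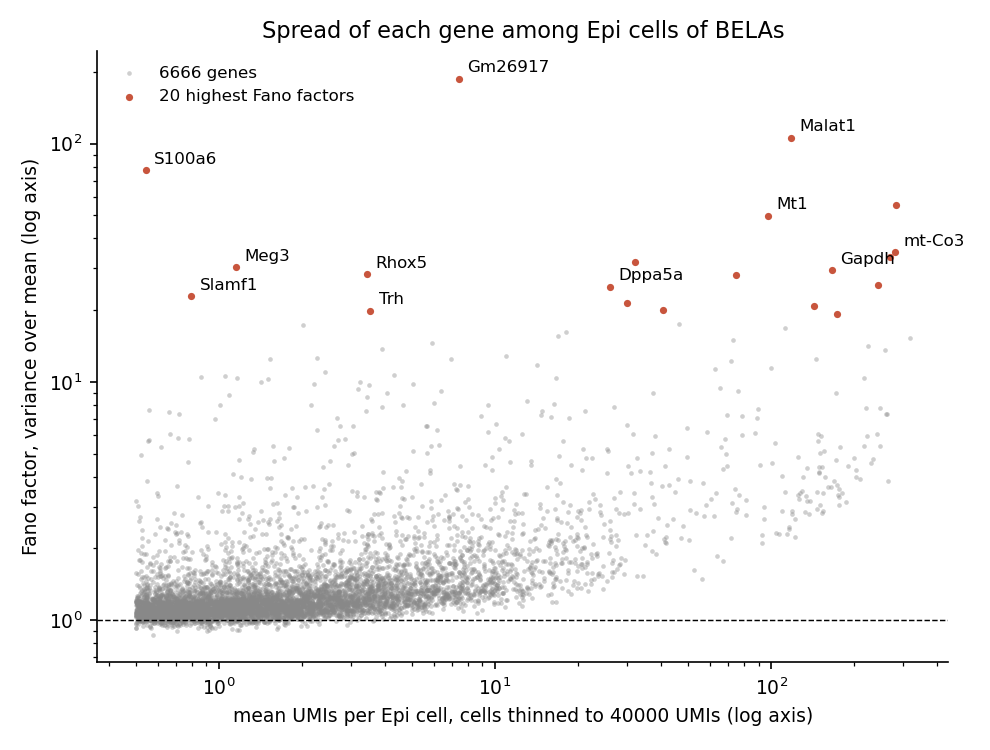
Fano factor against the mean UMIs per cell for 6666 genes in 801 Epi cells of BELAs thinned to 40000 UMIs, both on log axes, with the dashed line at 1 and the 20 largest values in red. Most genes lie close to 1, and Meg3, Slamf1 and S100a6 stand out at a mean near 1 UMI.

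Correlations between genes across the cells are given as a description over 801 cells of 1 library, which share the library, the thinning and the cell cycle. The genes named as starting points below were chosen after their values were seen. The cell cycle was visible, with Top2a tied to Prc1 (Pearson r = 0.75) and Cdk1 (r = 0.74), and with the sum of 14 G2/M genes running from 0 to 310 UMIs around a median of 87. S-phase sums had a median of 68 UMIs, beside 30 in VE lineage cells. The metallothionein genes Mt1 and Mt2 varied together (r = 0.74), and Apoe varied with the lysosomal genes Cd63 (r = 0.57) and Hexa (r = 0.50). Targets of p53 also varied together, Cdkn1a with Phlda3 (r = 0.51) and Btg2 (r = 0.51). The same pairs in 591 Epi cells of Epi cysts gave 0.65 (Top2a with Prc1), 0.81 (Mt1 with Mt2), 0.41 (Apoe with Cd63) and 0.47 (Cdkn1a with Phlda3).

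A group of hypoxia-response genes varied together with Anxa2. Across the Epi cells, Anxa2 varied with Ndufa4l2 (r = 0.74), Higd1a (r = 0.72), Bsg (r = 0.72), Ero1l (r = 0.71) and the glycolytic genes Aldoa (r = 0.70), Gpi1 (r = 0.69) and Aldoc (r = 0.68), and Krt18 was tied to it less (r = 0.38). In Epi cysts the values were 0.12 for Ndufa4l2, 0.08 for Higd1a and 0.11 for Aldoa, where Anxa2 had at most 3 UMIs in a cell. Anxa2 had at least 5 UMIs in 99 of 801 BELA Epi cells, 164 of 514 VE lineage cells, 0 of 591 Epi cyst cells and 4 of 41 Epi cells of VE cysts. Ndufa4l2 had at least 5 in 126, 3, 3 and 11 cells of the same groups, so that it was frequent in the Epi cells of BELAs and VE cysts and rare in those of Epi cysts and in the VE lineage. Of the 99 cells, 13 were mixed (13.1%, beside 4.70% of the others), and their median mitochondrial share was 3.07% against 3.48%. Without mixed cells the r of Anxa2 with Ndufa4l2 was 0.74. The summed glycolysis and hypoxia list ran from 166 to 1443 UMIs per cell with a median of 538 and a coefficient of variation of 31.4%, against 233 to 1029 UMIs, a median of 516 and 21.5% in Epi cysts.

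The promoters of Anxa2 and P4ha1, another gene among the 12 closest to Anxa2, are shown because the hypoxia-inducible factors bind the core ACGTG or GCGTG, in capitals here on either strand. The windows are chr9:69453433-69453732 (Anxa2) and chr10:59323046-59323345 (P4ha1), both on the plus strand of GRCm38.p6 (RefSeq).
Anxa2: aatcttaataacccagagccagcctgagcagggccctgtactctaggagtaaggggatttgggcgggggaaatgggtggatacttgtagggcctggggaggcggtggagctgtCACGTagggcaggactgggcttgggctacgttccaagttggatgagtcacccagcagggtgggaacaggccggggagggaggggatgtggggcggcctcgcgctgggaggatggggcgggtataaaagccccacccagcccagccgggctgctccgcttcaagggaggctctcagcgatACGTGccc
P4ha1: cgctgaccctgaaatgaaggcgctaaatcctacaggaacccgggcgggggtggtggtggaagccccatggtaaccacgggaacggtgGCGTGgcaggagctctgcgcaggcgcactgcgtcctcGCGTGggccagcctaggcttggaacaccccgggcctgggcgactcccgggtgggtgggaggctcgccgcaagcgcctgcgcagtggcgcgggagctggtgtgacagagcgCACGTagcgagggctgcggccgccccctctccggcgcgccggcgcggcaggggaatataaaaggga
Of Anxa2 and its 12 closest genes, 9 had an entry. Either core occurred in 6 of the 9 windows (66.7%), beside 66.9% of the 7564 windows of all measured genes, and ACGTG alone in 5 of 9 (55.6%) beside 27.8%. The combined core is so common in windows of this length that its presence says little about any one of them.

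A separate pattern was that of Meg3, a maternally expressed noncoding RNA of the imprinted Dlk1-Dio3 region on chromosome 12. Of the 801 thinned Epi cells, 754 had no Meg3 UMI, 13 had 1 to 4, and 34 (4.24%) had 8 to 60 with a median of 26, so that 99.2% of all Meg3 UMIs lay in the 40 highest cells. Rian, which lies downstream in the same orientation, had a mean of 6.26 UMIs in the 34 cells and 0.0117 in the other 767, and its r with Meg3 was 0.91. Mirg, further along, had means of 1.56 and 0.00130 UMIs. The paternally expressed Dlk1 had means of 0.0294 and 0.0417 UMIs, and Snrpn, from another imprinted region, 18.6 and 16.6. Meg3, Rian and Mirg were on together in a few cells, and Dlk1 and Snrpn did not follow them.

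The same split was seen in every group of cells. At least 5 Meg3 UMIs were found in 28 of 514 VE lineage cells of BELAs (5.45%), 13 of 591 Epi cells of Epi cysts, 4 of 41 Epi cells of VE cysts and 18 of 476 VE lineage cells of VE cysts. Rian followed it in each, with r = 0.97 in Epi cysts. The 34 Epi cells had a median of 72010 UMIs before thinning, beside 82132 in the other cells, and 4 of them were mixed (11.8% against 5.48%). The genes lie on the plus strand of mm10 at chr12:109541001-109571726 (Meg3), chr12:109603940-109661716 (Rian) and chr12:109729764-109749460 (Mirg). The promoter window of Meg3, chr12:109540746-109541045 (GRCm38.p6, plus strand), is shown with its 13 CpG dinucleotides in capitals, since imprinting acts through methylation of CpGs. The Rian window held no CpG and that of Mirg 10, with a median of 22 over all measured genes.
Meg3: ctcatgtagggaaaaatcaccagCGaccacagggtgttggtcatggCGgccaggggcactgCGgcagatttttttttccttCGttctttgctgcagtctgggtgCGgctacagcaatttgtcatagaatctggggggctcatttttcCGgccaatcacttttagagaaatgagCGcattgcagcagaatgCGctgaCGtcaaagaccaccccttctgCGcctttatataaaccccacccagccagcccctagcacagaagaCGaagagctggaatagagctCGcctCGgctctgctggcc

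**Figure D4:**
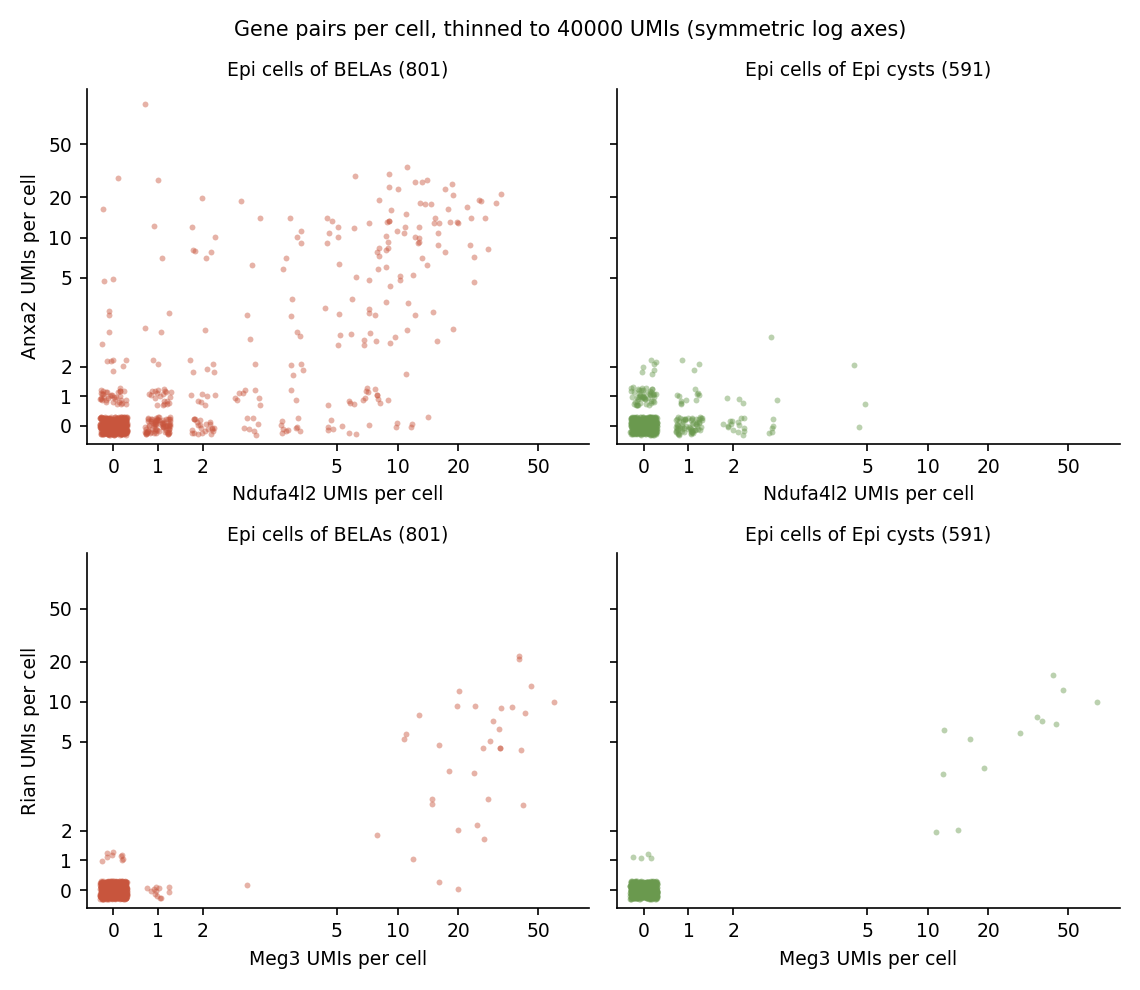
UMIs per cell of Ndufa4l2 against Anxa2 (top) and Meg3 against Rian (bottom) in 801 Epi cells of BELAs (left) and 591 Epi cells of Epi cysts (right), thinned to 40000 UMIs, on symmetric log axes with jitter. High Anxa2 and Ndufa4l2 occur together in BELAs, no Epi cyst cell has more than 3 Anxa2 UMIs, and Meg3 and Rian are high together in a few cells of both libraries.

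Other genes in the top 20 differed in how their UMIs were spread over the cells. Slamf1, a receptor of the immunoglobulin family, had 84.6% of its UMIs in the 40 highest cells and at least 5 UMIs in 24 of 801 (3.00%). No other gene followed Slamf1 (largest r = 0.13), and in Epi cysts 24 of 591 Epi cells had at least 5 UMIs of it (4.06%). Rhox5, an X-linked homeobox gene, had at least 5 UMIs in 103 cells (12.9%), beside 94.0% of VE lineage cells, and 12 of the 103 were mixed (11.7%, beside 4.87% of the others), with a mean of 1.25 UMIs of the VE markers against 0.781. Trh, which encodes a hypothalamic releasing hormone, had at least 5 in 149 Epi cells (18.6%), up to 73, and in 5 VE lineage cells. The share was similar in the other Epi cells, with 124 of 591 in Epi cysts (21.0%, up to 89) and 9 of 41 in VE cysts (22.0%). Dppa5a had 20 UMIs in the median and 246 in the highest cell. Nodal targets were also uneven, Lefty1 with a Fano factor of 12.6, 0 UMIs in the median and 65 in the highest cell.

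A set of 10 Epi cells carried Hand1, a bHLH factor of trophoblast, extraembryonic mesoderm and heart, at 5 or more UMIs. No cell of the other 4 groups did. With at least 1 UMI the numbers were 20 of 868 Epi cells, 8 of 542 VE lineage cells, 1 of 655 in Epi cysts, 0 of 44 and 1 of 581 in VE cysts. In the 10 cells Hand1 ran from 6 to 114 UMIs with a median of 42.5. The cells were chosen for this gene after its values were seen, so the values below describe them. They held 43862 to 100336 UMIs each (median 76804.5, others 79103.5), 771542 in sum, which sets the level of 3 counts at 3.89 CPM, and 1 was mixed.

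Naive genes stood high in these cells and formative genes low. Of 12 naive genes, 10 were at least 2-fold higher than in the other 858 Epi cells, with Zfp42 at 463 CPM (416 to 513) against 20.4 CPM, Klf2 at 236 against 8.51 CPM, Tbx3 at 97.2 against 1.92 CPM, Tfcp2l1 at 89.4 against 2.03 CPM and Esrrb at 63.5 against 1.09 CPM, and Prdm14 and Nr0b1 had no UMI. Of 14 formative genes 13 were at least 2-fold lower. Dnmt3b stood at 88.1 against 968 CPM, Pou3f1 at 19.4 against 256 CPM and Otx2 at 7.78 against 107 CPM, and Fgf5 and Lef1 had no UMI against 91.1 and 46.7 CPM. Pou5f1 was close in both, 441 CPM (395 to 490) against 480 CPM, while Sox2 (245 against 44.2 CPM) and Nanog (150 against 28.6 CPM) were higher in the 10 cells. Pou5f1, Sox2 and Nanog are among the markers by which all Epi cells were chosen, so these levels are description only. Of 5539 genes with a mean of at least 20 CPM, 522 were at least 2-fold higher (9.42%) and 237 lower (4.28%) in the 10 cells. The list counts for these cells used no minimum level, so these shares are no matched background for them.

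Beside the naive genes, the highest ratios included genes known from trophoblast, placenta or oocyte. Khdc3 stood at 255 CPM (221 to 294) against 0.939 CPM and had UMIs in all 10 cells, Sfmbt2, an imprinted gene needed in placenta, at 184 against 4.49 CPM, Peg10 at 136 against 4.14 CPM, Plet1 at 170 against 2.54 CPM and the X-linked homeobox genes Rhox6 and Esx1 at 189 against 3.36 CPM and 120 against 0.841 CPM. Bmp4 stood at 192 against 7.01 CPM and Dnmt3l at 213 against 9.29 CPM. The levels were not shared evenly: the top cell of each gene held 47.3% of the Rhox6, 43.5% of the Plet1, 38.5% of the Bmp4 and 31.2% of the Esx1 UMIs. That share was lower for Peg10 (28.6%), Dnmt3l (20.1%), Khdc3 (19.8%) and Sfmbt2 (18.3%). Esx1 had UMIs in 8 and Bmp4 in 7 of the 10 cells. Of 10 trophoblast markers 4 were at least 2-fold higher, but Hand1 among them is the gene that chose the cells. The others were Tfap2c (51.8 against 0.897 CPM), Gata3 and Krt7. Of these, 40 of 44 Krt7 UMIs and 6 of 8 Gata3 UMIs lay in 1 cell each. The defining trophoblast markers Cdx2, Elf5 and Tpbpa had no UMI. Of 9 germ cell markers 4 were at least 2-fold higher as well and 0 lower, and Tfap2c is on both lists. The median log2 ratio was 0.74 for the germ cell and 0.35 for the trophoblast list. Of 326 S100a6 UMIs, 293 lay in 1 cell. Of 20 basement membrane genes 9 were higher and 3 lower, and of 6 keratin and vimentin genes 5 were higher, Krt7 among them. Apart from Krt7, how the UMIs of these lists were shared over the 10 cells is not given here. Of 14 further VE genes none was higher, 1 was lower and 5 had no UMI.

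In a plane of naive against formative genes the 10 cells lay apart from most of the others. Their summed naive level ran from 582 to 2098 CPM with a median of 1197, against 0 to 2039 CPM and a median of 36.8 in the other 858. Their formative sum ran from 610 to 1764 CPM with a median of 1204, against 257 to 4958 CPM and a median of 2606, so the groups overlap in both sums. Above 500 CPM of naive genes lay 15 Epi cells, 10 of them the Hand1 cells, and above 300 CPM 23. In the thinned cells the naive list had a median of 1 UMI and a highest value of 87, with 2 and 16 in Epi cysts.

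**Figure D5:**
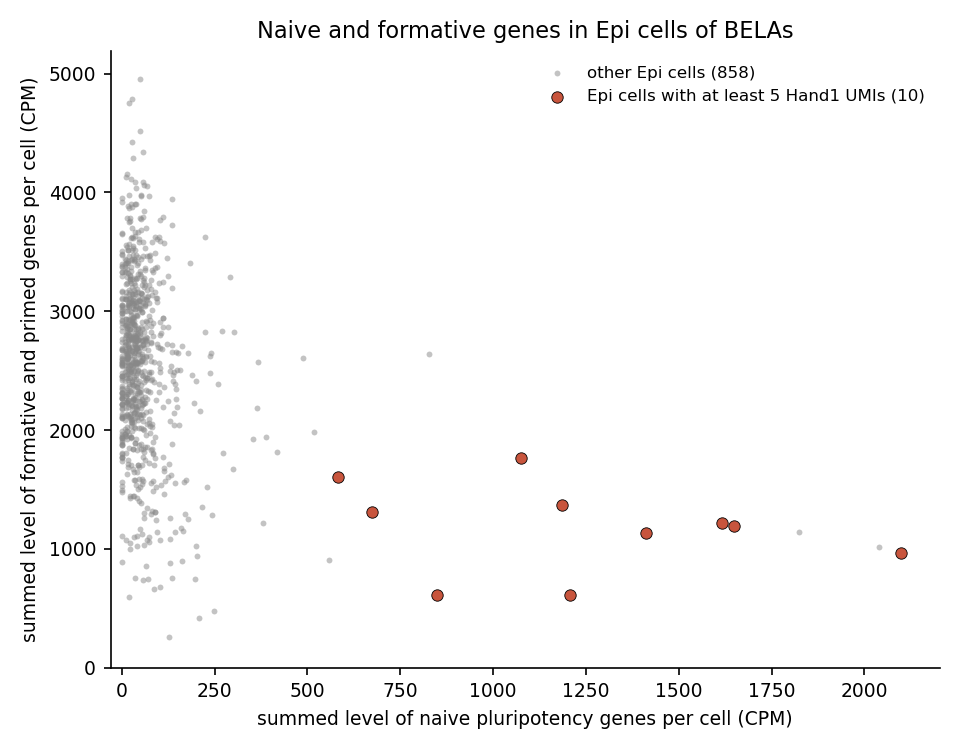
Summed level of 12 naive (horizontal) and 14 formative and primed genes (vertical) in each of the 868 Epi cells of BELAs, in CPM of the cell. Red points are the 10 cells with at least 5 Hand1 UMIs, which lie between 582 and 2098 CPM of naive genes, where 5 other Epi cells exceed 500 CPM.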

How the data were processed

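Single-cell libraries were made with 10x Genomics 3′ v3.1 chemistry, targeting 1000 cells each per the labels. The paper gives a higher target for BELAs, whose matrix held 2220 barcodes. The deposited matrices hold raw UMI counts that the authors made with Cell Ranger 4.0.0 on mm10, for 32285 genes. Cells were kept and assigned as described. Counts were summed per group and scaled to CPM, with exact Poisson (levels), conditional binomial (ratios) and Clopper-Pearson (shares) intervals, using Python 3.11.15, numpy 2.4.6, scipy 1.17.1 and pandas 2.3.3. Log2 ratios had 5 CPM added and required a mean of 5 CPM. For the 10 Hand1 cells the overall counts required a mean of 20 CPM and the list counts no minimum. Named genes were the 20 highest and 20 lowest ratios of a comparison, list members past 2-fold or else the 3 furthest, and the 20 largest Fano factors. The computations were tested on simulated data. Alternatives changed the pseudocount, level filter, scaling, depth, cell filter and mixed cells. Promoters came from RefSeq, GRCm38.p6, the assembly of mm10. With 1 library per condition no test was made. The members and gene lists were chosen with earlier results of these data known. Levels are not corrected for gene length and are not compared between genes. A few genes that these rules name are not reported here.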

Additional observations from a re-analysis of the deposited data

Results flagged for a closer look

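For 5 of the genes reported here the ratio of Epi over VE lineage cells lay past 2-fold in opposite directions in BELAs and in VE cysts, with 1 library each, so the difference between the libraries was not tested. The log2 ratios (5 CPM added) in BELAs and in VE cysts were -1.71 and 2.85 for Fgf8, -2.01 and 1.12 for Grb10, 1.20 and -1.44 for Itga6, -1.15 and 1.39 for Pkdcc and -1.05 and 1.11 for Tcf15. Fgf8 is a ligand of the FGF family, Grb10 an adaptor of growth factor receptors, Tcf15 a transcription factor, Itga6 is a laminin receptor subunit and Pkdcc a secreted kinase. In VE lineage cells the levels were, for Fgf8, 22.3 CPM in the BELA library and 0.168 CPM in that of VE cysts, 85.0 and 11.4 CPM for Grb10, 17.3 and 109 CPM for Itga6, 19.7 and 4.43 CPM for Pkdcc, and 34.8 and 5.61 CPM for Tcf15. In Epi cells they were 3.36 and 32.3 CPM for Fgf8, 17.3 and 30.8 CPM for Grb10, 46.2 and 37.1 CPM for Itga6, 6.10 and 19.7 CPM for Pkdcc, and 14.3 and 18.0 CPM for Tcf15. For all 5 genes the level in VE lineage cells differed between the libraries by a larger factor than that in Epi cells.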

How the results depend on the processing

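No paired analysis was possible because each condition has 1 library and no test was made. The counts of genes past 2-fold depend on the pseudocount and the level filter. For Epi over VE lineage cells (832 higher and 1324 lower) they were 305 and 717 with 20 CPM added and 447 and 867 with a mean of at least 20 CPM. For Epi cells of BELAs over Epi cysts (104 and 118) they were 224 and 184 with 1 CPM added, 26 and 41 with 20 CPM added, 57 and 63 with a mean of at least 20 CPM, and 174 higher when scaled without mitochondrial and ribosomal protein genes. The share of Epi cells was 61.6% and became 54.9% when cells were assigned by the number of markers with a UMI, which ties 88 cells. Of 40 named genes per comparison, all 40 stayed past 2-fold in every alternative for Epi over VE lineage cells, and 32 for Epi cysts, where 20 CPM added took the others below. No called list median or named gene changed sign. Of all 34 list medians per comparison, 8 against the VE lineage and 12 against Epi cysts changed sign in at least 1 alternative. The largest of these had a log2 ratio of 0.33 and 0.99 in size, in this order. Of 14 list medians past 2-fold against the VE lineage, 8 stayed so in every alternative, and of 3 against Epi cysts none did. Fano factors fell with thinning to 20000 UMIs, by its construction. Alternatives added after seeing the data were the leaving out of mixed cells for the VE gene median and the correlations, and Hand1 cutoffs of 1 UMI (20 cells) and 10 UMIs (8 cells). Depth limits the 10 Hand1 cells most, where 3 counts are 3.89 CPM.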

Other observations

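The genes named here were chosen after their values were seen. Nupr1, a stress-induced chromatin protein, had at least 5 UMIs in 40 of 801 thinned Epi cells, and varied with Ddit3 (r = 0.45) and Trib3 (r = 0.41), both induced in the integrated stress response. The median mitochondrial share of these 40 cells was 1.58% against 3.46% in the other Epi cells. Of the 40 cells, 7 were mixed (17.5%, beside 5.1% of the others). Neurod1, a neurogenic bHLH factor, had at least 5 UMIs in 28 Epi cells and in none of the 514 VE lineage cells. It varied with Plk2 (r = 0.48), Btg2 (r = 0.46) and Cdkn1a (r = 0.41), and 3 of the 28 cells were mixed (10.7%, beside 5.56% of the others). Keratin and vimentin sums had a median of 7 UMIs and a highest value of 354 in 1 cell, beside 4 and 22 in Epi cysts.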
